A study of Bos taurus with 2 samples.

Results

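Integrins are the receptors by which a cell holds on to the matrix around it. Each receptor is a pair of an alpha and a beta subunit, and the alpha subunit largely sets which ligand is bound. ITGA3, ITGA6 and ITGA7 pair with ITGB1 to bind laminins, and integrin alpha 7 beta 1 is the main laminin-binding integrin of skeletal muscle. ITGA5 pairs with ITGB1 to bind fibronectin, ITGAV pairs with ITGB1, ITGB3 or ITGB5 to bind vitronectin, fibronectin and related proteins, ITGA4 binds fibronectin and VCAM1, and ITGA11 binds collagen. These 10 genes, 7 alpha and 3 beta subunits chosen by name, were described among the 21867 genes counted in cultured bovine satellite cells. Satellite cells are the muscle stem cells that give rise to myoblasts and, after fusion, to muscle fibres.

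The cells came from the longissimus muscle of 1 male Holstein calf, 2 weeks old, and were grown untreated for 1 week in DMEM with 10% FBS. There was 1 group with 2 replicates, libraries 1 and 2, made with the 10x Genomics 3′ kit from different cells of the same preparation. Every p-value below therefore measures the spread of cell sampling and library preparation and not that between animals or cultures. Library 1 held 9939 cells and 145631299 UMIs (unique molecular identifiers, each standing for 1 captured mRNA molecule), and library 2 held 9157 cells and 137818568 UMIs. The 2 libraries shared 27 barcodes. The study divided the 19096 cells into 15 clusters. It named clusters 8 and 5 for PAX3, cluster 4 for PAX7, cluster 1 for MYF5, cluster 2 for MYOD1, and clusters 3 and 12 for MYOG, and placed these 7 myogenic clusters on a trajectory from cluster 8 through clusters 1 and 3 to cluster 12, and another from cluster 8 through clusters 5 and 4 to cluster 2.

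The labels were checked against marker genes. MYOG, the transcription factor that drives myoblast differentiation, stood at 18.1 UMIs per 10000 in library 1 and 19.2 in library 2 in cluster 12, against 0.116 and 0.0994 in cluster 8. PAX7 and PAX3, which define satellite cells, gave 176 and 316 UMIs over all cells, so the names of clusters 4, 5 and 8 rest on few molecules. PDGFRA, the marker of fibro-adipogenic progenitors, stood at 1.63 and 1.53 UMIs per 10000 in cluster 9 and at 1.23 and 1.74 in cluster 7. Defining markers of leukocytes, endothelium, glia and platelets were at or near 0, with 1 UMI of PTPRC (leukocytes), 45 of PECAM1 and 28 of CDH5 (endothelium), and 0 of SOX10 (glia) and GP9 (platelets). Some other markers of these lists gave more. Among those of leukocytes, CD68 gave 580 UMIs, LAPTM5 132, CD3E 52 and CSF1R 14. Among those of endothelium, TEK gave 147, VWF 85 and KDR 25. The mean summed level of a whole list was at most 0.0331 UMIs per 10000 in any cluster for the 5 endothelial markers, 0.168 for the 5 leukocyte markers and 0.00276 for the 4 glial markers. Markers of smooth muscle and pericytes were present. The summed level of the 3 smooth muscle markers was 3.53 to 9.61 over the 15 clusters, with 190636 UMIs of ACTA2, 8484 of CNN1 and 192 of MYH11, and that of the 5 pericyte markers was 0.130 to 3.99, with 10356 UMIs of NOTCH3, 6425 of CSPG4, 102 of MCAM, 35 of ABCC9 and 8 of RGS5. Depth was uneven between clusters. The cells of cluster 7 held a median of 1389 UMIs, those of cluster 13 held 1631, of cluster 14 2513.5 and of cluster 15 647, against 5398.5 in cluster 10 and 12929 to 23011 in the other 10 clusters. Ribosomal protein genes took 8.42% of UMIs in cluster 7 and 20.6 to 27.9% elsewhere.

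The beta subunit ITGB1, the partner of most alpha subunits here (ENSBTAG00000015910), gave 129329 UMIs in 92.7% of cells. Among the alpha subunits ITGA7 (ENSBTAG00000012897) gave 61552 UMIs in 78.8% of cells and ITGA5 (ENSBTAG00000013745) gave 28194 in 47.2%. The totals were 11527 for ITGB3, 9016 for ITGB5, 6314 for ITGA3, 3571 for ITGAV and 2797 for ITGA6. ITGA4 gave 532 UMIs, too few for firm values in the small clusters. ITGA11 gave 20 UMIs in 20 cells, 5 in library 1 and 15 in library 2. It never passed the filter on low counts, so 9 of the 10 subunits were tested in each comparison below. Because the kit reads mRNA ends, these totals were not used to rank subunits against each other. Comparisons of levels below are of 1 gene, or 1 summed list, between groups of cells. A rough guide to free RNA given further below is an exception.

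Levels were taken as UMIs per 10000 UMIs of a cluster in a library. ITGA7 stood at 10.8 in library 1 and 9.76 in library 2 in cluster 7, then at 4.02 and 4.08 in cluster 12 and at 3.24 and 3.22 in cluster 3. It was lowest in cluster 9, at 0.438 and 0.380. In cluster 8, at the start of both trajectories, it stood at 1.10 and 1.19. Clusters 7, 12, 3 and 9 were thus set apart from their neighbours in the order of levels by more than the spread between libraries, except that cluster 3 overlapped cluster 13. In all, 5 of the 14 neighbouring pairs of clusters overlapped for ITGA7.

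The fibronectin receptor subunit ITGA5 had another order. It stood at 8.72 and 9.11 in cluster 7 and at 4.43 and 4.85 in cluster 9, then at 1.97 and 1.91 in cluster 10 and 1.07 and 1.08 in cluster 8. The lowest levels were in cluster 3, at 0.207 and 0.194, and cluster 12, at 0.163 and 0.217, whose ranges overlapped. Among the 11 clusters with a median of at least 5000 UMIs per cell, ITGA5 differed 24.4-fold between its highest, cluster 9, and its lowest, cluster 12. This was the widest range of the 9 subunits for which a fold could be given. ITGA7 differed 9.91-fold over the same clusters, from cluster 12 down to cluster 9. The low ends of both ranges, ITGA5 in cluster 12 and ITGA7 in cluster 9, are not read as expression further below. The part of RNA from outside the cells in these folds was not tested.

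By the mean of both libraries the beta subunits were all lowest in cluster 12. ITGB1 stood at 10.2 and 13.3 in cluster 7, 7.40 and 6.99 in cluster 9 and 6.16 and 5.53 in cluster 8, and at 2.55 and 2.44 in cluster 12. ITGB3 stood at 1.77 and 1.83 in cluster 7, 1.01 and 1.03 in cluster 9 and 0.861 and 0.827 in cluster 8, and at 0.0716 and 0.0911 in cluster 12. The range among the 11 deeper clusters was 2.88-fold for ITGB1 and 12.5-fold for ITGB3. The part of RNA from outside the cells in the low ITGB3 level of cluster 12 was not tested. ITGB5 was highest in cluster 8, at 0.675 and 0.627, and stood at 0.117 and 0.165 in cluster 12. From cluster 8 to cluster 12 the summed level of the 3 beta subunits went from 7.69 and 6.98 to 2.74 and 2.70, while that of the 7 alpha subunits went from 2.78 and 2.92 to 4.65 and 4.76.

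The remaining alpha subunits were found at lower counts. ITGA3 stood at 0.736 and 0.706 in cluster 7 and 0.400 and 0.401 in cluster 10, and at 0.0992 and 0.0767 in cluster 12 and 0.0528 and 0.0599 in cluster 9. ITGA6 was highest in cluster 12, at 0.258 and 0.254, overlapping cluster 7 at 0.212 and 0.254, and lowest in cluster 9, at 0.0423 and 0.0238. ITGAV stood at 0.346 and 0.377 in cluster 7, 0.205 and 0.221 in cluster 8 and 0.0423 and 0.0575 in cluster 12. ITGA4 was also highest in cluster 12, at 0.0602 and 0.0671, from 37 and 42 UMIs. For ITGA6 and ITGA4, 11 of the 14 neighbouring pairs overlapped between libraries, so most of their order was not resolved.

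**Figure D1:**
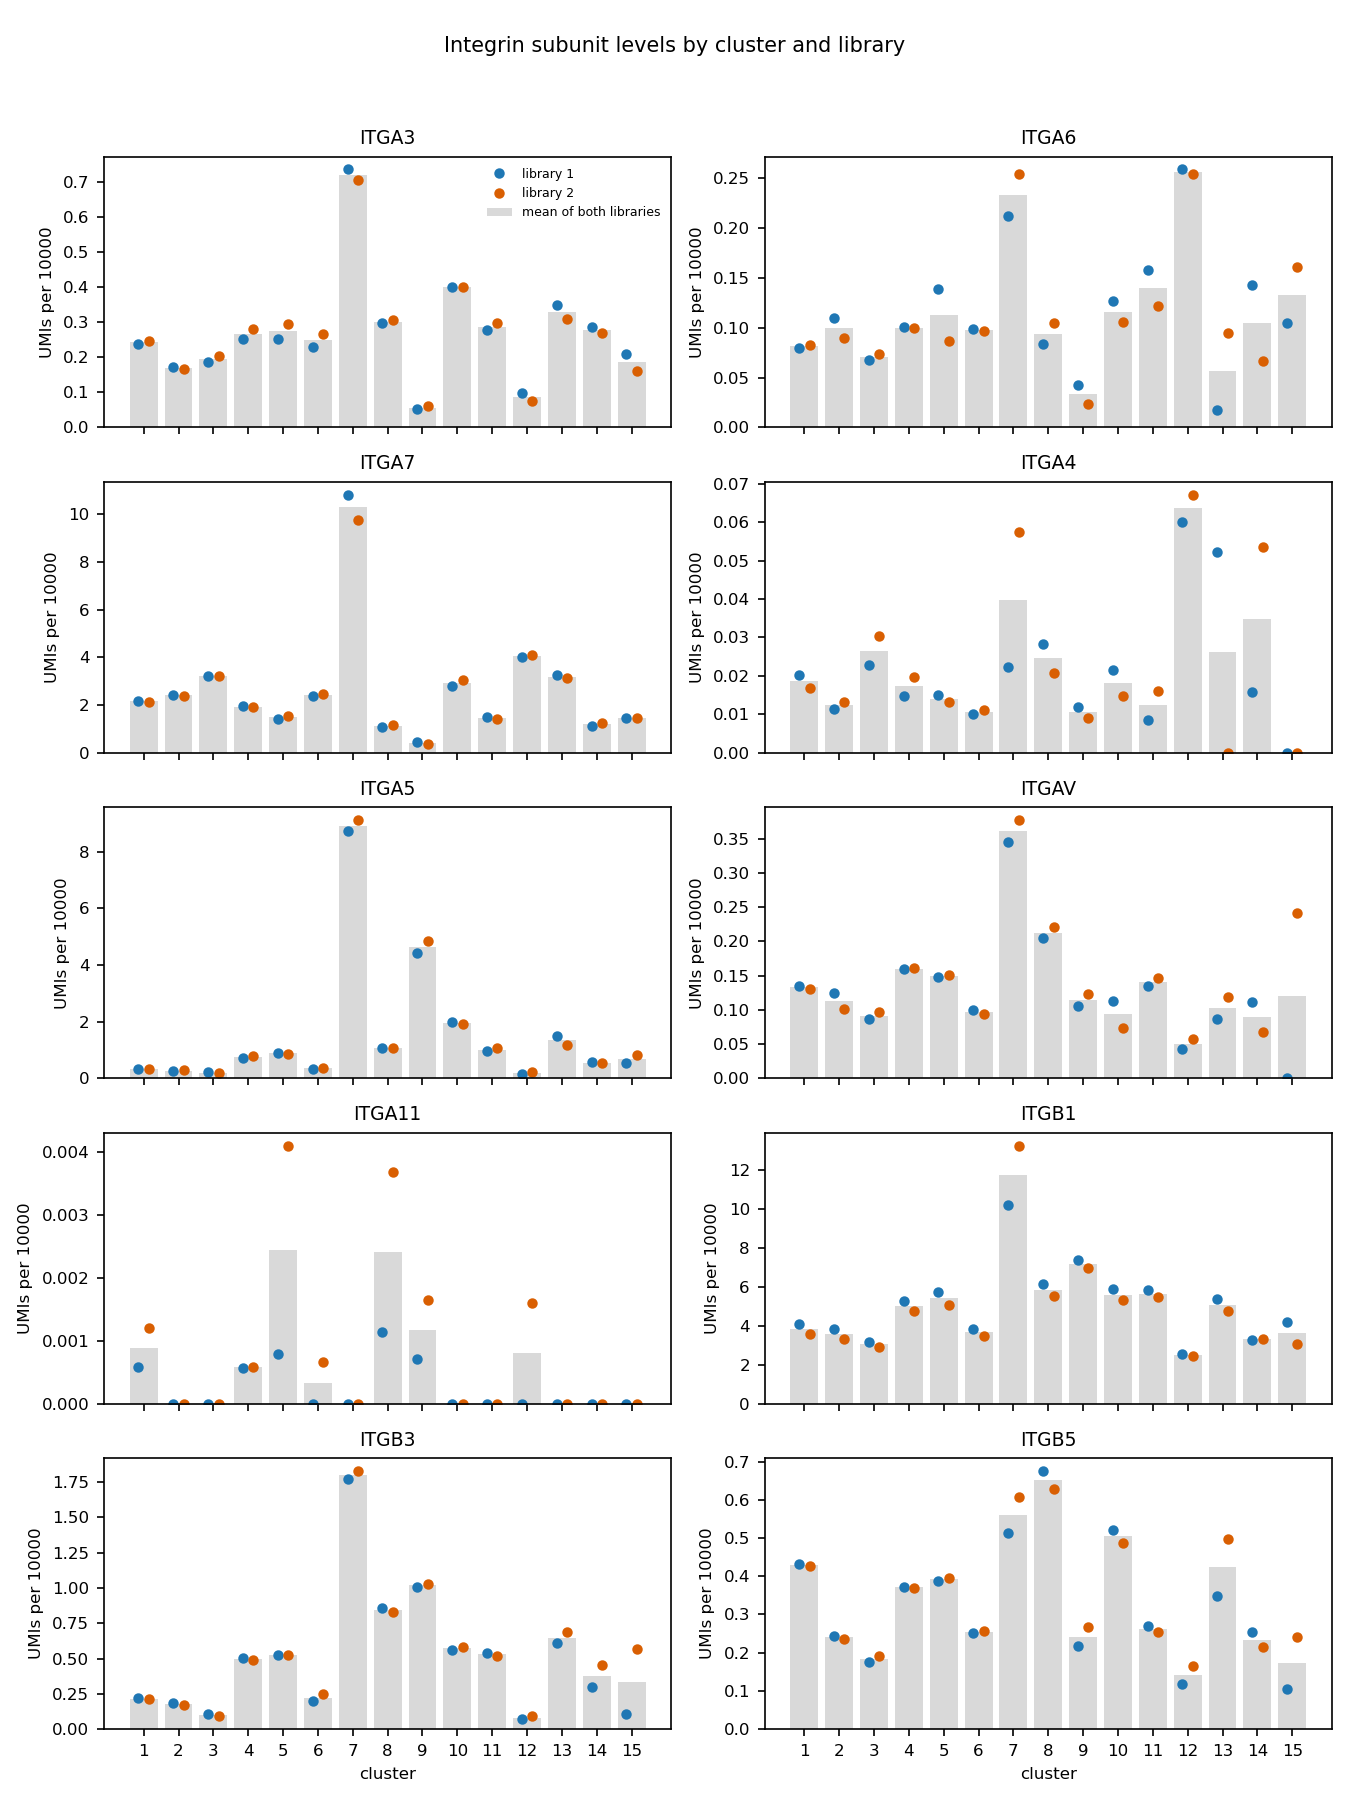
Level of each of the 10 subunits (UMIs per 10000 UMIs, linear axes from 0 with a scale of its own in each panel) in the 15 clusters, with a point for each library and a bar for their mean. Cluster 7 is the highest bar in the panels of ITGA3, ITGA7, ITGA5, ITGAV, ITGB1 and ITGB3, and cluster 12 is highest for ITGA6 and ITGA4 and lowest for all 3 beta subunits.

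By the mean of both libraries, 6 of the 10 subunits were highest in cluster 7, whose cells were shallow. How many of all genes were highest in cluster 7 was not counted. Of its 1298 cells, 990 held under 2000 UMIs and 308 held more. In the shallower cells ITGA7 stood at 11.4 and 11.2 UMIs per 10000, ITGA5 at 8.97 and 8.53 and ITGB1 at 9.85 and 9.41. In the deeper cells ITGA7 stood at 9.63 and 8.33, ITGA5 at 8.17 and 9.69 and ITGB1 at 11.01 and 16.99. The high levels of these 3 subunits were therefore found in both kinds of cell. The summed level of the 5 pericyte markers was also highest in cluster 7, at 3.87 and 4.11, mostly from NOTCH3 and CSPG4. So were the sums of the fibro-adipogenic markers (160 and 164) and of 2 lists described below. These were integrin ligands (721 and 727) and adaptors and kinases (45.6 and 45.9). The myogenic and smooth muscle sums were highest elsewhere. High levels in cluster 7 were thus not particular to the integrin subunits. Cluster 7 carried MYOG at 1.81 and 1.70 as well as PDGFRA. With ribosomal protein genes left out of the total, a setting chosen after seeing the data, ITGA7 stood at 11.8 and 10.7 in cluster 7 and 5.21 and 5.28 in cluster 12, ITGA5 stood at 9.53 and 9.95 in cluster 7 and 5.73 and 6.26 in cluster 9, and 6 of the 10 subunits were again highest in cluster 7. The part of other cell types in these levels was not tested.

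Within a cluster the balance of alpha subunits was described by the share of each in the summed UMIs of all 7, which is read across clusters and not between genes. ITGA7 made up 39.5% and 40.6% of alpha subunit UMIs in cluster 8, 73.2% and 72.4% in cluster 1, 85.0% and 84.3% in cluster 3, and 86.6% and 85.8% in cluster 12. On the other trajectory its share was 48.8% and 52.9% in cluster 5, 61.3% and 59.1% in cluster 4, and 78.0% and 78.7% in cluster 2. The ranges of the libraries did not overlap between successive clusters of either trajectory, with clusters 3 and 12 the closest. ITGA5 made up 38.3% and 37.0% in cluster 8 and 3.50% and 4.57% in cluster 12. In cluster 9 the share of ITGA5 was higher than in any myogenic cluster, at 87.2% and 89.0%. That of ITGA7 was lower than in any of them, at 8.63% and 6.98%.

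**Figure D2:**
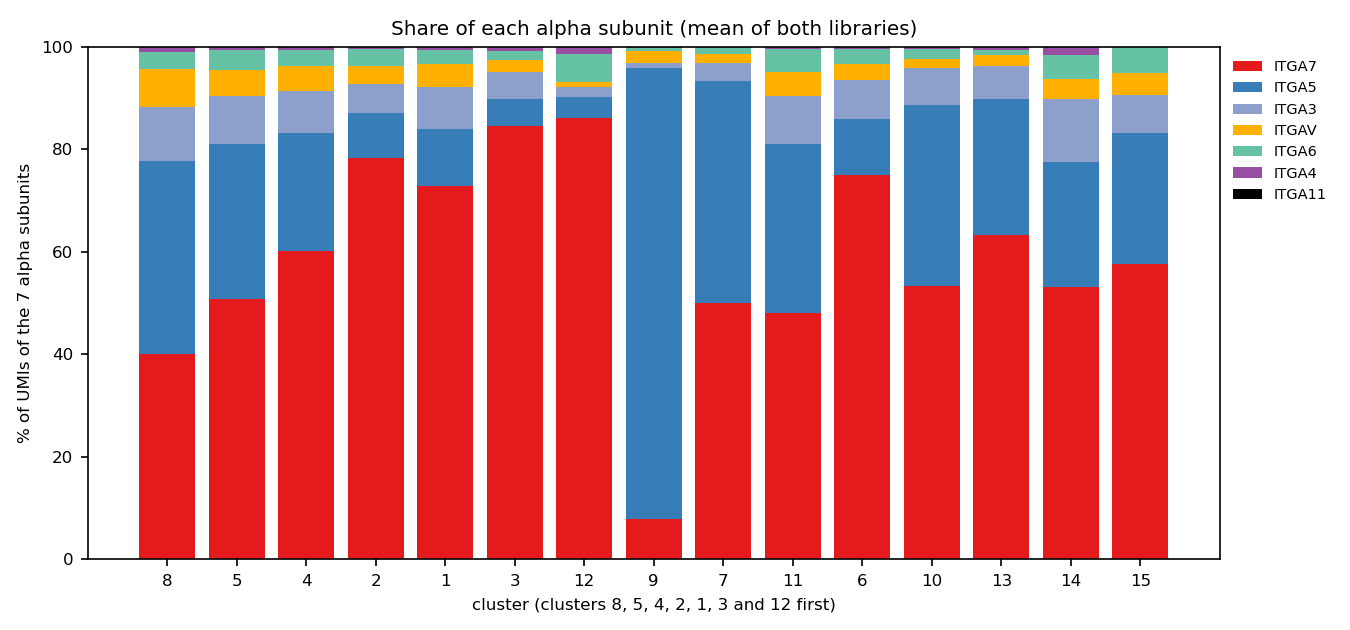
Share of each alpha subunit (% of the UMIs of the 7 alpha subunits, mean of both libraries) in the 15 clusters, the 7 myogenic clusters first. The ITGA7 segment is 40.1% in cluster 8 and 86.2% in cluster 12, and the ITGA5 segment is 88.1% in cluster 9.

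The same contrast was seen in the share of cells with at least 1 UMI, after each cell was thinned to 2000 UMIs and cells below that were left out. ITGA7 was found in 53.2% and 53.8% of cells of cluster 12, 45.4% and 45.7% of cluster 3, 33.6% and 32.9% of cluster 1, 18.7% and 20.3% of cluster 8, and 6.55% and 5.68% of cluster 9. ITGA5 was found in 57.1% and 59.4% of cells of cluster 9, 18.1% and 18.7% of cluster 8, and 3.10% and 3.91% of cluster 12. Clusters 7 and 10 did not show this contrast. In cluster 7 ITGA7 had its highest share, 67.2% and 58.9%, with ITGA5 at 38.1% and 52.3%, from 100 and 208 cells. In cluster 10 the shares were 40.3% and 43.9% for ITGA7 and 26.4% and 25.0% for ITGA5. As a rough guide to free RNA, MYOG was found in 3.85% and 2.64% of thinned cells of cluster 9, and PDGFRA in 2.16% and 1.62% of cluster 12. That these counts were free RNA was assumed, and doublets were kept. The guide sets different genes side by side and was not scaled for their abundance. The ITGA7 share in cluster 9 and the ITGA5 share in cluster 12 were above these by a few percentage points at most. In cluster 9 ITGA3 (0.891% and 0.993%), ITGA6 (0.784% and 0.476%), ITGAV and ITGA4 were below the MYOG shares. In cluster 12 ITGAV (0.823% and 1.17%), ITGA3 and ITGA4 were below the PDGFRA shares. ITGB3 (1.214% and 1.675%) and ITGB5 were below them there in library 1 only. The part of free RNA in any of these was not tested, so none of these shares was read as expression. Without thinning ITGA7 was found in 98.1% and 99.0% of cells of cluster 12 and 42.2% and 36.6% of cluster 9, at median depths of 19113 and 23011 UMIs.

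The steps of the trajectories were then compared with edgeR, 2 library sums against 2, and genes with an adjusted p under 0.05 were taken as called. The clusters had been made from the same counts, so a call is no independent evidence that cells differ, and neighbouring steps share the sums of a cluster. In simulated counts whose genes differed in dispersion, the share of false calls exceeded the nominal rate in most comparisons. Calls near the threshold are therefore uncertain. Fold changes are on the log2 scale, with the standard error after ±.

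From cluster 8, the PAX3 cluster, to cluster 1, the MYF5 cluster, ITGA7 rose by 0.96 ± 0.06 (1.94-fold, adjusted p = 1.1e-05), from 1.10 and 1.19 to 2.19 and 2.14 UMIs per 10000. It was higher in cluster 1 in both libraries, by 1.04 and 0.87. The genes these clusters are named for, MYF5 (0.02 ± 0.07, adjusted p = 0.865) and PAX3 (-1.06 ± 0.41, adjusted p = 0.0841), were not called between them. MYOD1 (2.57 ± 0.06) and MYOG (3.06 ± 0.11) were higher in cluster 1. In the same step 6 subunits fell. ITGB3 fell most, from 0.861 and 0.827 to 0.221 and 0.211 (log2 fold change -1.93 ± 0.07, adjusted p = 1.02e-06), and ITGA5 fell from 1.07 and 1.08 to 0.328 and 0.333 (-1.66 ± 0.06, adjusted p = 1.02e-06). The other 4 were ITGAV (-0.64 ± 0.10), ITGB5 (-0.57 ± 0.07), ITGB1 (-0.57 ± 0.08) and ITGA3 (-0.27 ± 0.08). ITGA3 was not called by DESeq2 (adjusted p = 0.253), nor when cells were reassigned to clusters without the integrin genes (adjusted p = 0.0825). ITGA6 (-0.18 ± 0.15) and ITGA4 (-0.37 ± 0.30) did not pass. Thus 7 of 9 tested subunits were called, where 34.1% of all genes tested were (17.2% higher, 16.9% lower), and the median log2 fold change was -0.57 over the subunits and -0.0019 over all genes.

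From cluster 1 to cluster 3, the step to MYOG cells, ITGA7 again rose and 6 subunits fell. ITGA7 rose by 0.61 ± 0.04 (1.53-fold, adjusted p = 8.12e-05), to 3.24 and 3.22. ITGB5 fell from 0.432 and 0.426 to 0.175 and 0.192 (-1.19 ± 0.07, adjusted p = 3.29e-05), and ITGB3 fell to 0.108 and 0.0950 (-1.05 ± 0.10, adjusted p = 0.000247). ITGA5 (-0.68 ± 0.07), ITGAV (-0.50 ± 0.10), ITGB1 (-0.29 ± 0.08) and ITGA3 (-0.28 ± 0.07) fell as well, but DESeq2 did not call ITGAV (adjusted p = 0.0645) or ITGA3 (adjusted p = 0.190). ITGA6 (-0.17 ± 0.13) and ITGA4 (0.54 ± 0.25) did not pass. In this step 7 of 9 were called against 40.2% of all genes (21.1% higher, 19.1% lower).

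Between the MYOG clusters, 12 against 3, the picture changed. ITGA6, whose protein pairs with ITGB1 as a laminin receptor, rose 3.90-fold, from 0.0671 and 0.0737 to 0.258 and 0.254 (1.96 ± 0.11, adjusted p = 1.22e-05). ITGA4 rose from 0.0227 and 0.0304 to 0.0602 and 0.0671 (1.36 ± 0.24, adjusted p = 0.00357). ITGA7 rose by 0.43 ± 0.05 (1.34-fold, adjusted p = 0.000353), by the same amount in both libraries. ITGA3, a further laminin receptor subunit, fell from 0.187 and 0.205 to 0.0992 and 0.0767 (-1.05 ± 0.15, adjusted p = 0.00113), so the laminin receptor subunits did not move together. ITGAV (-0.78 ± 0.20, adjusted p = 0.0181) and ITGB1 (-0.20 ± 0.06, adjusted p = 0.0453) were lower, but neither was called by DESeq2 (adjusted p = 0.117 and 0.137) or with cells reassigned (adjusted p = 0.0566 and 0.0654), nor ITGB1 in the joint fit of all clusters (adjusted p = 0.149). ITGA5 (0.02 ± 0.13), ITGB3 (-0.22 ± 0.17) and ITGB5 (-0.28 ± 0.15), which had fallen in the step before, did not pass. Here 3 subunits were higher and 3 lower, 6 of 9, against 33.8% of all genes (18.2% higher, 15.6% lower). Those were 1963 genes higher and 1687 lower in cluster 12. Without TMM scaling the median of all genes moved to -0.12 and the split was 1552 higher and 2527 lower. The log2 fold change of ITGA7 ranged from 0.33 to 0.44 over the alternatives.

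The other trajectory gave smaller steps at first. From cluster 8 to cluster 5, both PAX3 clusters, ITGA7 rose from 1.10 and 1.19 to 1.40 and 1.57 (0.38 ± 0.07, adjusted p = 0.00519). ITGB5 (-0.73 ± 0.07), ITGB3 (-0.68 ± 0.06), ITGAV (-0.50 ± 0.10) and ITGA5 (-0.29 ± 0.06) fell, though DESeq2 did not call ITGAV (adjusted p = 0.0828). Called were 5 of 9, against 28.5% of all genes (16.3% higher, 12.2% lower). With the library as a block ITGB1 (-0.11, adjusted p = 0.00548) and ITGA4 (-0.80, adjusted p = 0.0435) were called too.

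From cluster 5 to cluster 4, the PAX7 cluster, 2 of 9 were called against 16.4% of all genes (9.16% higher, 7.28% lower). PAX7 itself was not called in this step (0.87 ± 0.41, adjusted p = 0.197). The study linked many genes raised in clusters 2 and 4 to DNA synthesis and the cell cycle, and proposed that these cells were proliferating. All genes split into 1036 higher and 823 lower, which became 859 and 425 without a filter on low counts and 865 and 1027 in the joint fit. ITGA7 rose to 1.95 and 1.92 (0.36 ± 0.06, adjusted p = 0.00905). ITGA5 went from 0.909 and 0.844 to 0.706 and 0.773 (-0.27 ± 0.07, adjusted p = 0.0315), which DESeq2 (adjusted p = 0.0643) and the fit without a filter on low counts (adjusted p = 0.0774) did not call. ITGB1 (-0.14 ± 0.08) was called in this step with the library as a block (adjusted p = 0.00174), and ITGB3 (-0.11 ± 0.06) with cells reassigned (-0.24, adjusted p = 0.0254).

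The last step, from cluster 4 to the MYOD1 cluster 2, was larger. ITGB3 fell from 0.503 and 0.489 to 0.187 and 0.174 (-1.47 ± 0.06, adjusted p = 2.71e-05) and ITGA5 fell from 0.706 and 0.773 to 0.265 and 0.276 (-1.46 ± 0.06, adjusted p = 2.71e-05). ITGA3 (-0.65 ± 0.08), ITGB5 (-0.64 ± 0.06), ITGAV (-0.51 ± 0.12) and ITGB1 (-0.50 ± 0.08) also fell, with ITGAV not called by DESeq2 (adjusted p = 0.0657). ITGA7 rose to 2.43 and 2.38 (0.30 ± 0.04, adjusted p = 0.00191). ITGA6 (-0.02 ± 0.13) and ITGA4 (-0.49 ± 0.28) did not pass. The count was 7 of 9 against 30.2% of all genes (14.5% higher, 15.7% lower).

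ITGA7 was thus the only one of the 9 tested subunits called in the same direction in all 6 steps, and each of these calls held under every alternative that gave a test. Genes of the marker lists of other cells moved with the falling subunits. Of the 6 fibro-adipogenic markers 5 fell in each of 3 steps, from cluster 8 to 1, 1 to 3 and 4 to 2. In these steps 16.9%, 19.1% and 15.7% of all genes were lower. The falls were led by PPARG or COL1A1, which is also counted among the ligands below. Between clusters 12 and 3, 3 of the 6 were lower, against 15.6% of all genes, and ZNF423 was higher (1.52 ± 0.19). The summed level of the 6 markers was 106 and 103 UMIs per 10000 in cluster 8 and 15.8 and 14.3 in cluster 12. That sum does not follow PDGFRA, since it was 38.3 and 39.2 in cluster 9, and COL1A1 gave 84.3 and 82.2 of it in cluster 8. PDGFRA itself stood at 0.252 and 0.282 in cluster 8, 0.125 and 0.132 in cluster 1 and 0.125 and 0.0831 in cluster 12. The pericyte markers NOTCH3 and CSPG4, the 2 of 5 that were tested, fell in the same 3 steps, and the summed level of that list was 0.848 and 0.863 in cluster 8 and 0.140 and 0.120 in cluster 12. The smooth muscle markers ACTA2 and CNN1 fell in those steps too, and their list summed to 9.76 and 9.45 in cluster 8 and 8.05 and 7.27 in cluster 12, with ACTA2 higher again in cluster 12 than in cluster 3 (0.44 ± 0.07). The part of other cells in the fall of the subunits was not tested.

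**Figure D3:**
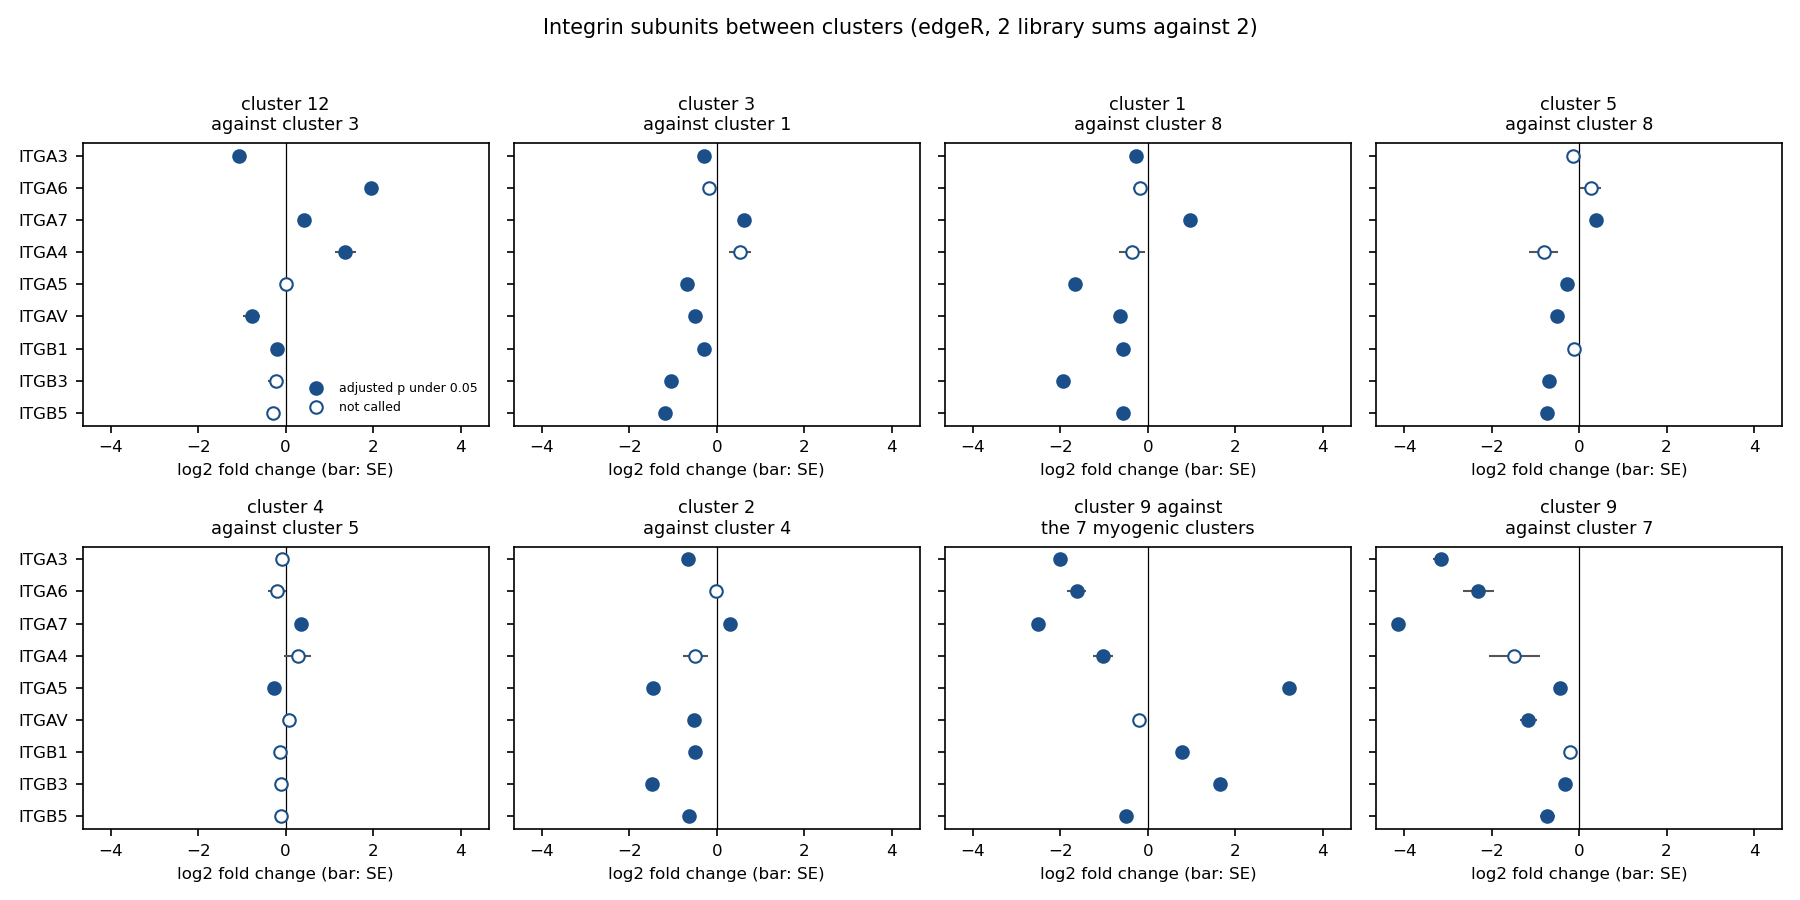
Log2 fold change of the 9 tested subunits (points, bars are standard errors) in the 8 comparisons, with filled points at an edgeR adjusted p under 0.05 and the first cluster named being the numerator. ITGA7 lies right of 0 with a filled point in all 6 steps between myogenic clusters, at 0.30 to 0.96, and left of 0 in both comparisons of cluster 9.

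Levels were also described without the borders between these clusters. Cells of clusters 1, 3 and 12 were grouped by their own MYOG UMIs, at 0, 1 to 4, 5 to 19 and 20 or more. ITGA7 went from 2.36 and 2.27 UMIs per 10000 in cells without MYOG to 2.64 and 2.68, then 3.31 and 3.18, and 3.81 and 3.77 in cells with 20 or more, a mean ratio of 1.64 between the ends. ITGB1 went the other way, from 4.02 and 3.52 through 3.50 and 3.45 and 3.22 and 2.95 to 2.72 and 2.50. For ITGB3 the ends were 0.211 and 0.193 against 0.0882 and 0.0820, and for ITGB5 0.369 and 0.370 against 0.147 and 0.187. ITGA6 did not rise evenly. It stood at 0.0710 and 0.0852, 0.0827 and 0.0940, and 0.0816 and 0.0620 in the first 3 groups, and at 0.178 and 0.180 in cells with 20 or more MYOG UMIs. ITGA4 had its highest level there too, at 0.0498 and 0.0638. The median depth rose over these groups from 13413 to 18532 UMIs, and no test was made.

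**Figure D4:**
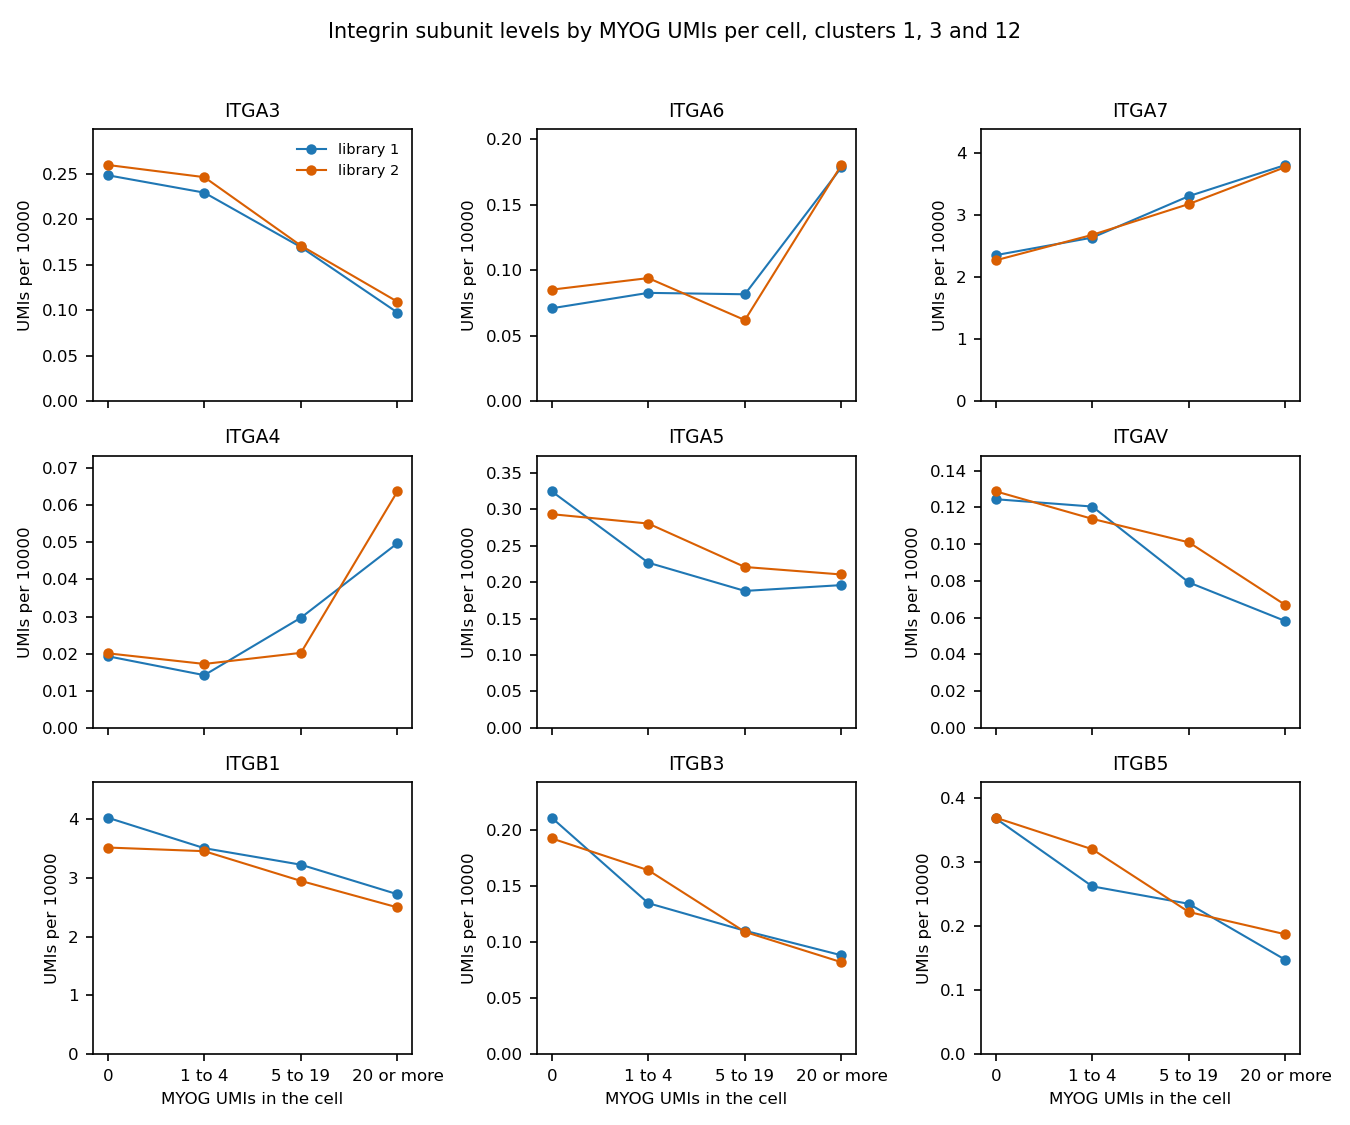
Level of each of 9 subunits (UMIs per 10000 UMIs, linear axes from 0 with a scale of its own in each panel) in cells of clusters 1, 3 and 12 grouped by MYOG UMIs per cell, with a line for each library. ITGA7 climbs over all 4 groups to 3.81 and 3.77, ITGA6 and ITGA4 are highest in the last group, and ITGA3, ITGAV, ITGB1, ITGB3 and ITGB5 are lowest there in both libraries.

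Cluster 9, which the study named for fibro-adipogenic progenitors, was compared with the sum of the 7 myogenic clusters. ITGA5 was 9.30-fold higher in cluster 9 (3.22 ± 0.05, adjusted p = 4.33e-06), by 3.17 in library 1 and 3.26 in library 2. ITGB3 (3.12-fold, 1.64 ± 0.04, adjusted p = 1.1e-05) and ITGB1 (1.71-fold, 0.77 ± 0.07, adjusted p = 0.000428) were higher as well. All 3 laminin receptor alpha subunits were lower, with ITGA7 lower by 5.72-fold (-2.52 ± 0.08, adjusted p = 1.43e-05), ITGA3 by 4.03-fold (-2.01 ± 0.08, adjusted p = 3.53e-05) and ITGA6 by 3.09-fold (-1.63 ± 0.22, adjusted p = 0.00211). ITGA4 (-1.03 ± 0.22) and ITGB5 (-0.49 ± 0.09) were lower too, and ITGAV (-0.21 ± 0.09, adjusted p = 0.0950) was not called. These were 8 of 9, 3 higher and 5 lower, against 56.5% of all genes (28.9% higher, 27.6% lower), and each call held under every alternative that gave a test. PDGFRA differed by 3.29 ± 0.06 and MYOG by -3.42 ± 0.20 in the same fit. Of the other marker lists, CSPG4 (2.78 ± 0.05), CNN1 (1.68 ± 0.05), PECAM1 (4.37 ± 0.37), KDR (2.99 ± 0.68) and LAPTM5 (2.62 ± 0.27) were higher in cluster 9, and NOTCH3 (-0.82 ± 0.05), MCAM (-1.85 ± 0.55) and ACTA2 (-0.25 ± 0.04) were lower. PECAM1 and KDR rested on 45 and 25 UMIs over all cells and LAPTM5 on 132, and KDR differed by 2.17 in library 1 and 3.28 in library 2. The part of such cells in the levels of cluster 9 was not tested, nor was that of free RNA in its levels of ITGA7, ITGA3, ITGA6 and ITGA4.

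Cluster 7 is the other cluster in which PDGFRA was high, and the study named it for fibro-adipogenic progenitors as well. The 2 clusters also differed in their markers. All 7 tested myogenic markers were lower in cluster 9, against 26.6% of all genes, led by MYMK (-4.86 ± 0.32) and MYH3 (-4.73 ± 0.17). The summed level of the myogenic list was 17.1 and 14.7 in cluster 7 and 2.27 and 1.72 in cluster 9. PDGFRA, PPARG and ZNF423 were called higher in cluster 9 and COL1A1 was called lower. The PDGFRA levels given further above, which carry no TMM scaling, overlapped between these clusters. In library 2 that level was higher in cluster 7. The part of myogenic cells, or of free RNA, in the differences below was not tested. Against cluster 7, ITGA7 was 17.6-fold lower in cluster 9 (-4.14 ± 0.12, adjusted p = 3.39e-06), ITGA3 8.98-fold lower (-3.17 ± 0.16, adjusted p = 1.11e-05) and ITGA6 4.94-fold lower (-2.30 ± 0.36, adjusted p = 0.00128), the last by -1.77 in library 1 and -2.91 in library 2. ITGAV (-1.16 ± 0.19), ITGB5 (-0.72 ± 0.18), ITGA5 (-0.44 ± 0.09) and ITGB3 (-0.32 ± 0.10) were lower by smaller amounts. The ITGB3 call was lost with the library as a block (adjusted p = 0.0532), with DESeq2 (adjusted p = 0.0755), without the filter (adjusted p = 0.284) and with cells reassigned (adjusted p = 0.0657), and the ITGA5 call when cells under 2000 UMIs were left out (adjusted p = 0.0812). ITGB1 (-0.20 ± 0.14) was not called, and its libraries went apart, at 0.08 and -0.45. ITGA4 (-1.48 ± 0.57, adjusted p = 0.0613) rested on 9 UMIs in cluster 7, and differed by -0.34 in library 1 and -2.11 in library 2. It was called in the joint fit (adjusted p = 0.0324), with cells reassigned (adjusted p = 0.0153) and with cells under 2000 UMIs left out (adjusted p = 0.0300). The count was 7 of 9, all lower, against 56.5% of all genes (29.9% higher, 26.6% lower). Scaling mattered here, since without TMM the median of all genes moved to -0.46, the calls went from 3229 higher and 2864 lower to 1904 and 4587, and ITGB1 (-0.71, adjusted p = 0.00167) was called, as was ITGA4 (-1.98, adjusted p = 0.0199).

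Most genes of a list of integrin ligands fell in the larger of these steps. The list includes collagens, and ITGA11, the collagen-binding subunit among the 10, was not tested. Of the 21 ligand genes looked for, 20 were in the feature list, and 17 or 18 were tested in each comparison. From cluster 8 to cluster 1, 12 fell and 3 rose of 18 tested, where 34.1% of all genes were called, led by TNC, encoding the matrix protein tenascin C (-1.32 ± 0.05), LAMA5, a laminin alpha chain (1.25 ± 0.40), and fibronectin FN1 (-1.23 ± 0.05). From cluster 1 to cluster 3, 13 of 18 fell and 2 rose, against 19.1% of all genes lower and 21.1% higher. LAMA4, another laminin alpha chain, changed there by -1.49 ± 0.10 and thrombospondin THBS1 by 0.97 ± 0.06. Between clusters 12 and 3, 10 of 17 fell and 1, LAMB2, rose, against 15.6% of all genes lower and 18.2% higher. From cluster 4 to cluster 2, 13 of 18 fell and 1, THBS1, rose, against 15.7% of all genes lower and 14.5% higher. From cluster 8 to cluster 5, 12 of 17 fell and 1 rose, against 12.2% of all genes lower and 16.3% higher. From cluster 5 to cluster 4, 1 of 18 was called, CCN2 (-0.78 ± 0.05), against 16.4% of all genes. FN1, the ligand of ITGA5, stood at 4.56 and 4.70 UMIs per 10000 in cluster 8 and fell away to 0.678 and 0.706 in cluster 12. Its levels were 6.34 and 6.72 in cluster 9, and cluster 7 had 16.8 and 17.5. In cluster 9 it was higher than in the myogenic clusters by 1.62 ± 0.04, as was COL4A1, a basement membrane collagen, by 2.00 ± 0.04, and 8 ligands were higher and 7 lower, 15 of 18 against 56.5% of all genes. Against cluster 7, 17 of 18 tested ligands were lower in cluster 9, where 26.6% of all genes were.

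Genes for adaptors and kinases that link integrins to actin were called in both directions. From cluster 8 to cluster 1, 6 of 23 tested rose and 9 fell, and from cluster 4 to cluster 2, 5 of 23 rose and 8 fell, where 34.1% and 30.2% of all genes were called. LIMS2, an adaptor of the ILK complex, was 0.254 and 0.256 UMIs per 10000 in cluster 3 and 1.06 and 1.12 in cluster 12 (2.19 ± 0.07, adjusted p = 5.58e-07), and CD151, a tetraspanin that binds laminin receptors, rose in the same step by 1.07 ± 0.06, with 5 of 22 tested adaptors and kinases higher and 4 lower, where 33.8% of all genes were called, a share near the background. FERMT1, a kindlin that activates integrins, rose from cluster 8 to cluster 1 (1.54 ± 0.33, by 1.21 and 2.18 in the libraries), from cluster 1 to cluster 3 (1.16 ± 0.16) and from cluster 4 to cluster 2 (1.24 ± 0.09). DAB2, an endocytic adaptor, fell from cluster 8 to cluster 1 (-0.65 ± 0.06) and from cluster 1 to cluster 3 (-1.26 ± 0.08). On the other trajectory it fell from cluster 8 to 5 (-0.68 ± 0.07), 5 to 4 (-0.70 ± 0.07) and 4 to 2 (-1.05 ± 0.08). In cluster 9, against the myogenic clusters, TLN2, the talin abundant in muscle, was lower by 2.54 on the log2 scale (-2.54 ± 0.12) as were LIMS2 (-2.04 ± 0.08) and TNS1, a tensin (-1.45 ± 0.07), and DAB2 was higher (1.55 ± 0.04), among 8 higher and 8 lower of 24 tested, where 56.5% of all genes were called.

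Of the other integrin subunits 16 were looked for, 15 were in the feature list and at most 10 were tested, all at low counts. ITGB8 rose from cluster 8 to cluster 1 (1.42 ± 0.39, by 0.77 in library 1 and 2.57 in library 2), from cluster 1 to cluster 3 (0.98 ± 0.15) and from cluster 4 to cluster 2 (0.87 ± 0.21), where the 3 beta subunits described above fell. ITGA1, a collagen receptor subunit, fell in those steps by -1.44 ± 0.25, -0.82 ± 0.26 and -1.01 ± 0.14. ITGB6, with 68 UMIs in all, was higher in cluster 12 than in cluster 3 (1.86 ± 0.40). In cluster 9, ITGA9 (2.97 ± 0.31), ITGA2 (2.86 ± 0.38) and ITGA8 (2.54 ± 0.25) were higher than in the myogenic clusters, from 116, 55 and 200 UMIs over all cells, as was ITGA1 (1.51 ± 0.15). ITGB8 was lower there (-1.99 ± 0.26). ITGB6 was called lower too (adjusted p = 0.0157), with 0 UMIs in cluster 9 against 59 in the myogenic clusters, and with a floor of 3 counts over the group it was at least 2.62-fold lower.

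Over the 11 deeper clusters the levels of some subunits went together and those of others apart, given as Pearson correlations of log2 levels over 11 points from the same libraries. ITGB1 went with ITGB3 (r = 0.986) and ITGA5 (r = 0.935), and ITGA7 went against ITGB1 (r = -0.814), ITGB3 (r = -0.807) and ITGA5 (r = -0.792). These values describe the deeper clusters only. Cluster 7, left out here for its depth, was highest for ITGA7, ITGA5, ITGB1 and ITGB3 alike. ITGAV was nearest to ITGB5 (r = 0.750) among the subunits, and ITGA3 also to ITGB5 (r = 0.690). Not every subunit took a side, since ITGA7 stood at r = -0.257 with ITGB5 and 0.303 with ITGA3, and ITGA3 at r = -0.019 with ITGA5. Among 2924 genes with a mean level of at least 0.5 UMIs per 10000, the patterns most like that of ITGA7 were those of CMTM7 (r = 0.973), STK17A (r = 0.961) and AKAP2 (r = 0.956). Those most like ITGA5 were SURF4 (r = 0.972), PICALM (r = 0.970) and SEC61A1 (r = 0.968). For ITGB1 they were CALU (r = 0.990), SLC39A7 (r = 0.981) and VASN (r = 0.981), and for ITGB3 they were ITGB1 itself, CALU (r = 0.985) and IGFBP4 (r = 0.980). For ITGA3 the nearest was ARHGAP32 (r = 0.965), for ITGA6 EHD4 (r = 0.920), for ITGAV IFT57 (r = 0.968) and for ITGB5 TCF25 (r = 0.980).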

How the data were processed

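The authors used Cell Ranger 3.0.2 to align reads to ARS-UCD1.2, count UMIs and merge both libraries. The UMI counts per gene and cell that they deposited are those of the merged libraries. The merge was run with normalization by mapped reads, so the libraries had been evened in depth before their spread was used here. The effect of this on that spread was not tested. They also deposited an average per gene and cluster, a score scaled to a common total, with log2 fold changes and p-values of their own that were not used. The library of a cell was read from its barcode suffix. The cluster of each of the 19096 cells was deduced from the deposited average scores, which convert to whole UMI sums (largest deviation from a whole number 0.000107).

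UMIs were summed per cluster and library. Sums were compared with edgeR 4.0.16 (quasi-likelihood test, TMM, filterByExpr, Benjamini-Hochberg adjustment over all genes tested, calls at 0.05) in R 4.3.3. DESeq2 1.42.0, no TMM, no filter, the library as a block, a joint fit of 30 sums, reassigned cells, and leaving out shallow cells, cells above 2 times the median UMIs of their cluster, or 1 library were alternatives. No doublet caller was run and doublets were kept. Thinned shares are expected values for a random draw of 2000 UMIs from each cell. Because sums of a cluster pair come from the same libraries, the library number pairs them, and the log2 ratios of library 1 to library 2 correlated at 0.200 to 0.621 between the sides. The fits were tested on simulated counts, where the share of false calls exceeded the nominal rate in most comparisons once genes differed in their dispersion. PCR duplicates are removed by UMIs, and depth limits the rarer subunits.

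The 10 subunits, the gene lists and the tests were chosen with earlier results of these data known. Named were all 10 subunits, at most 4 called genes per list and comparison with the largest fold change, the 3 genes most correlated with a subunit of at least 1000 UMIs, using log2(level + 0.05), and the genes clusters are named for. Totals of cell type markers, KDR, LAPTM5, MCAM, ITGA1 and ITGB8 in cluster 9, LAMB2, THBS1 in cluster 2 against 4 and the levels of FN1 by cluster were given beyond that rule, after their values were seen. CCN1 and CCN2 were matched by their older symbols. LAMA2, ITGAX, PF4 and PPBP had no entry under these names and were not analysed here. Gene positions and sequences were not used here.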

Additional observations from a re-analysis of the deposited data

How the results depend on the processing

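Of 719 log2 fold changes of single subunits recomputed under an alternative, 682 were counted as unchanged. These kept their direction and their side of the threshold, or with 1 library left out moved by less than the SD between libraries. The rule for 1 library could hardly be failed, since each of 2 values lies within 1 SD of their mean. Leaving out cells under 2000 UMIs took cells from cluster 7 alone among the compared clusters, so comparisons without it could not change. The 682 therefore overstates how far the values were put to a test. The number of called subunits moved by more than 1.5 times in a single comparison, from cluster 5 to cluster 4, where it went from 2 to 1 with DESeq2 and to 1 without a filter on low counts. DESeq2 ended 9 calls, the most of any alternative, and over all genes it called 2268, 2865, 2408, 1704, 1019 and 2150 genes in the 6 steps between myogenic clusters (in the order given below) in place of 3650, 4562, 3812, 3120, 1859 and 3497. The values that turned were all near 0. ITGA5 in cluster 12 against cluster 3 went from 0.02 to -0.077 without TMM, to -0.0072 without a filter and to -0.19 with cells reassigned, of which 86.3% stayed in their cluster, and ITGA6 in cluster 2 against cluster 4 went from -0.02 to 0.0020 in the joint fit. The cause was not tested. The share of thinned cells of cluster 12 with ITGA7, 53.5%, was 32.8% at 1000 UMIs, 82.5% at 5000 UMIs, as the drawn number sets it, and 52.2% with cells reassigned. With 1 library, 6 to 7 subunits were highest in cluster 7.

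With the library as a replicate block, the called subunits per comparison were 6, 7, 7, 7, 3, 7, 8 and 6 in place of 6, 7, 7, 5, 2, 7, 8 and 7, in the order 12 against 3, 3 against 1, 1 against 8, 5 against 8, 4 against 5, 2 against 4, and cluster 9 against the myogenic clusters and against cluster 7. It changed no call beyond those given above. Over all genes the block raised the calls from 1859 to 3979 in cluster 4 against 5 and from 3497 to 5448 in cluster 2 against 4. Both libraries held cells of the same preparation from 1 calf, so no spread between animals could be measured, and the counts of ITGA4 and ITGA11 limit what could be seen of them.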
